A study of Sus scrofa with 13 samples.

Results

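The kidney-restricted Ensembl genes of the pig were 124 of the 21607 Ensembl genes listed in every library, and 32420 features were listed in all. They were selected on their own measured levels in the 9 organs sampled at day 240. A member had RPKM (reads scaled to transcript length and to the total reads of the library) of at least 1 in kidney, its highest value in kidney, and tau of at least 0.9. Tau is an index of tissue restriction that was computed here on log2(RPKM + 0.1) and reaches 1 for a gene that is at 0 in every other organ. Since these 9 values chose the members, high kidney levels and low levels elsewhere are a description of the set and not a result. The libraries at day 0 and day 30 and the mixtures were not used in the choice. A symbol was found for 75 members, and 49 are known here by identifier only.

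The data came from a catalogue of long noncoding RNAs (lncRNAs) in the pig, for which ribosome-depleted total RNA was sequenced in 13 libraries. Guizhou mini-pigs, a Chinese breed of small body size, gave 11 single-tissue libraries. Kidney, liver, heart, lung, spleen, adipose tissue, ovary and testis were sampled 240 days after birth, and longissimus dorsi, the long back muscle, at day 0, day 30 and day 240. The other 2 were a tissue mixture and a muscle mixture, pooled in equal amounts from RNA of multiple breeds and ages. The labels name neither the tissues in the tissue mixture nor the animals behind any library. Each tissue or stage had a single library, so no test between tissues was possible and differences between animals could not be measured. The labels give 2 protocols for strand-specific libraries without saying which library was made with which, so tissue and protocol cannot be told apart.

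The kidney filters blood in the glomerulus, whose podocytes form the filtration slit, and then reclaims most of the filtrate along the tubule. The proximal tubule takes back glucose, amino acids, organic ions and filtered protein through carriers and receptors in its brush border. The thick ascending limb of the loop of Henle moves salt without water, and the distal tubule and collecting duct set the final content of calcium, potassium, acid and water. Some genes that serve these steps are known for being used in few other organs, while others are shared with further organs.

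The kidney library held 36363969 reads in the total behind RPKM, of which 6488599 were counted on listed features. For the other single tissues the totals ran from 21685316 in ovary to 38581416 in testis, and they were 108337358 for mixed tissues and 63015726 for mixed muscle. These reads were recovered from the RPKM values and came out whole. Intervals on single values are exact Poisson 95% intervals of the recovered reads and cover counting error only. A floor of 3 reads was taken as the lowest level that could be shown. For 34 members above 0 in fewer than 4 libraries, the recovered length and reads are lower bounds.

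The label of the kidney library was checked against lists of markers of kidney cells. Of 148 matched genes on these lists, 96 were highest in kidney at RPKM of at least 1. The exceptions included WT1, a transcription factor of podocytes, which was at 1.39 RPKM in kidney and highest in spleen, and the podocyte gene NPHS1 at 0.491 RPKM in kidney. Markers of neighbouring tissue were low. The 3 matched adrenal cortex genes summed to 0.0237 RPKM in kidney against 643 in testis and 673 in ovary, and 3 of 4 urothelium genes were at 0. The 12 hepatocyte genes summed to 34.3 RPKM in kidney and 7848 in liver, and the 6 lymphocyte genes to 5.98 in kidney and 90.9 in spleen. In these bulk samples, fewer cells of a type and less RNA per cell cannot be told apart.

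The members covered a wide range in kidney. Their kidney levels ran from 1.02 to 410 RPKM with a median of 5.44, and 7 members were at 100 or more, 37 between 10 and 100, and 80 below 10. Behind these levels stood 9 to 38261 reads with a median of 252, and 17 members had fewer than 50 reads. Together the members took 2.76% of the counted reads of the kidney library (178799 reads). The 10 with the highest kidney RPKM made up 61.7% of these reads. All members together had a share of 0.204% in the tissue mixture and at most 0.0137% in any other library, the highest of these being liver.

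**Figure D1:**
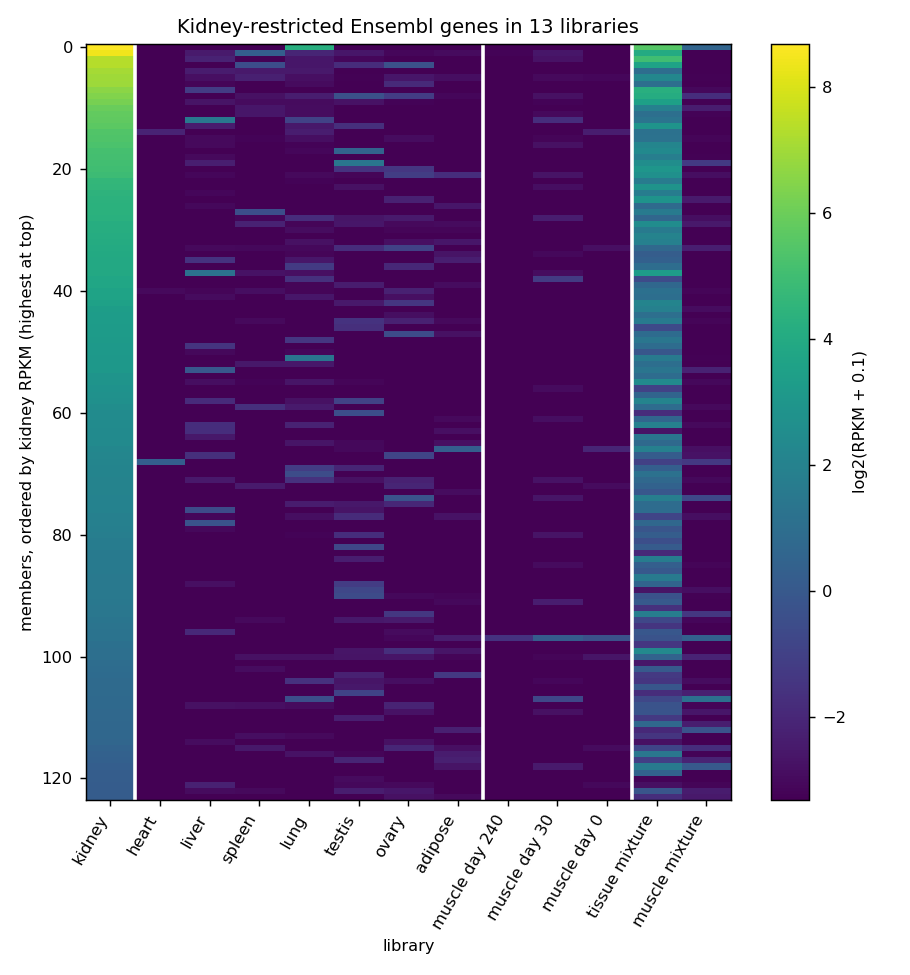
Heatmap of the 124 members (rows, ordered by kidney RPKM) in the 13 libraries (columns), coloured by log2(RPKM + 0.1). The kidney column is bright by the choice of members, the tissue mixture is the only other library with a signal in every row, and the muscle columns are dark in most rows, with SIM1 the only row at 0.1 RPKM or more in all 4.

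Of the 148 matched genes on the kidney lists, 38 were members, while 58 more were highest in kidney at RPKM of at least 1 but were not restricted enough. The list of proximal tubule carriers held the most members, 12 of 31 matched genes, and 25 of the 31 were highest in kidney. SLC5A12, which carries lactate with sodium, was the highest of them at 124 RPKM in kidney (95% interval 122 to 125). In the other organs it was at 0 in heart and day 240 muscle, 0.0396 in liver, 0.106 in spleen, 0.0385 in lung, 0.00527 in testis, 0.0656 in ovary and 0.0377 in adipose tissue. Spleen was thus the next organ, 1166-fold below kidney by RPKM (counting interval 746 to 1936). Its relative SLC5A8, another sodium-coupled carrier of monocarboxylates, was at 13.5 RPKM in kidney and at most 0.0872 in the other organs.

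Carriers of organic ions followed. Of 16 listed genes with SLC22 symbols, 4 were members, against 75 of all 11654 named Ensembl genes, with no test made. SLC22A2, which takes organic cations from blood, was at 41.2 RPKM in kidney and at most 0.0364 RPKM in any other organ. For organic anions, SLC22A8 was at 38.5 RPKM and SLC22A6 at 20.5 RPKM. SLC22A12, the urate carrier of the brush border, was at 24.5 RPKM (23.5 to 25.5), and a single read in lung was all that was seen of it in the other 8 organs. SLC47A2, an exporter of organic cations into the urine, was at 18.0 RPKM, with spleen next at 0.122. Outside kidney and the tissue mixture, this 0.122 RPKM was the highest value of these 5 carriers.

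Amino acid carriers ranged from 2.97 to 21.9 RPKM. SLC6A18, a carrier of glycine and other neutral amino acids, was at 21.9 RPKM in kidney with 1 read in liver and none in the other 7 organs. Its neighbour SLC6A19, the main carrier of neutral amino acids in the brush border, was at 2.97 RPKM, with testis next at 0.0958. SLC7A13, which carries acidic amino acids and cystine, was at 13.8 RPKM, and SLC7A9, the cystine carrier, at 4.06 RPKM. SLC28A1, which takes up pyrimidine nucleosides, was at 2.94 RPKM in kidney and had no read in the other 8 organs, so that it was at least 32.2-fold higher in kidney with 3 reads per library as the floor. Carriers of the same list that stayed outside the set were as high in kidney: SLC4A4, which returns bicarbonate to blood, was at 53.2 RPKM with tau of 0.619, SLC13A1, a sulfate carrier, at 52.1 with 0.826, and SLC7A8, a neutral amino acid carrier, at 36.9 with 0.762.

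Of the brush border and endocytosis list, 3 of 11 matched genes were members and 9 were highest in kidney. DPEP1, a dipeptidase, was at 31.4 RPKM in kidney, with 0.277 in ovary and 0.242 in testis and no read in the other 6 organs. AMN, the partner of cubilin in protein uptake, was at 23.6 RPKM, with 0.0460 in testis and none elsewhere among the organs. MEP1B, a metalloprotease of the brush border, was much lower at 1.23 RPKM (0.992 to 1.502). Cubilin itself (CUBN) was higher in kidney, at 66.3 RPKM and 40.1-fold above testis, and stayed just outside with tau of 0.891. The peptidase ENPEP at 125 RPKM and the scaffold protein PDZK1 at 79.7 RPKM were further outside, with tau of 0.752 and 0.810.

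The list of proximal tubule enzymes and related genes gave 3 members of 21 matched genes, and 12 of the 21 were highest in kidney. TMIGD1, an adhesion protein, was at 50.7 RPKM, with testis next at 0.205. ACMSD, an enzyme of tryptophan breakdown, was at 8.68 RPKM and was seen in liver only among the other organs, at 0.245. CYP27B1, which makes the active form of vitamin D, was at 1.03 RPKM (0.817 to 1.28), and testis followed at 0.0945. Of the enzymes of this list that were highest in kidney but not members, the 3 with the highest levels all had liver next. PCK1, the enzyme that commits to glucose synthesis, was at 116 RPKM in kidney and 2.70-fold lower in liver, HAO2 was at 57.5 RPKM with liver 3.56-fold lower, and DAO at 35.1 RPKM with liver 7.79-fold lower.

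**Figure D2:**
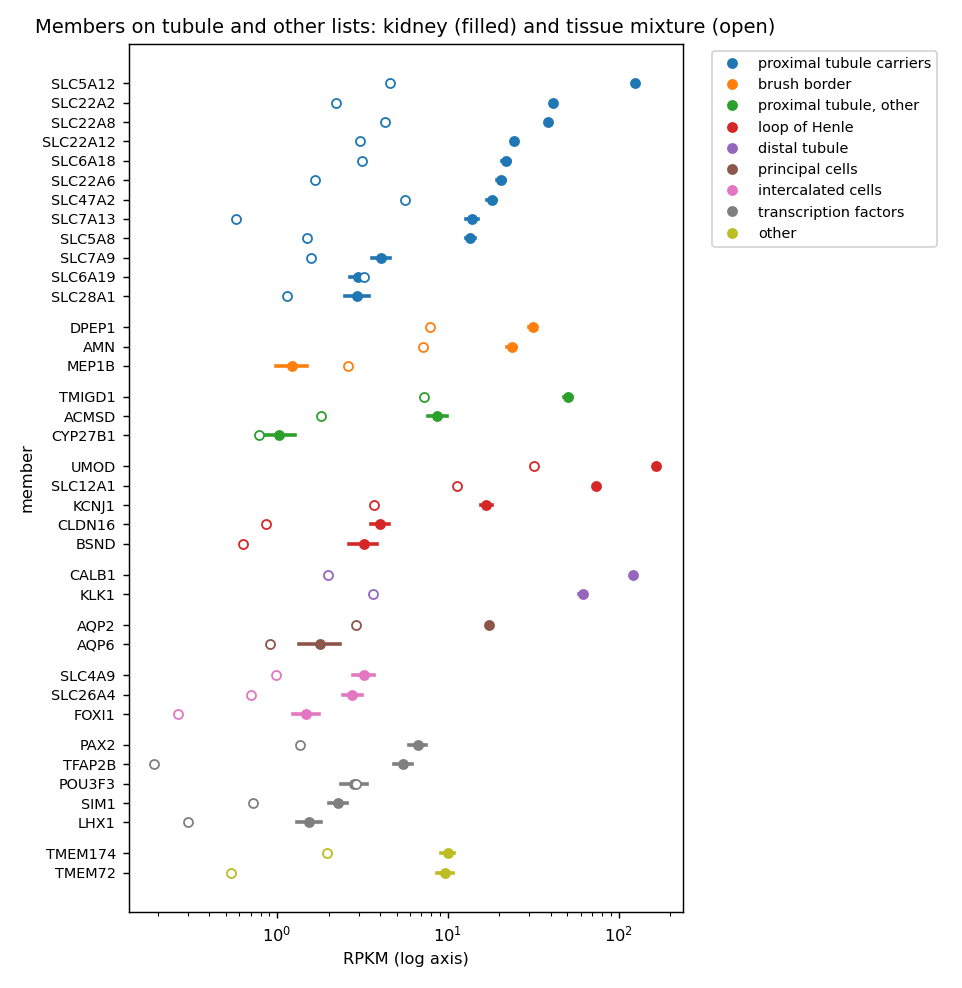
RPKM (log axis) of members on the lists of tubule genes, transcription factors and other kidney genes, grouped by list, in kidney (filled points, with exact Poisson 95% intervals) and in the tissue mixture (open points). Levels reached 165 RPKM in kidney for UMOD and stayed under 7 RPKM for the 5 transcription factors, and the open points lie left of the filled ones except for MEP1B, SLC6A19 and POU3F3.

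The loop of Henle was the list with the highest share of members, 5 of 10 matched genes, with 8 of the 10 highest in kidney. UMOD encodes uromodulin, the most abundant protein of normal urine. It was at 165 RPKM in kidney (161 to 168), 0.121 in liver, 0.0675 in lung and 0.0162 in testis, with no read in heart, spleen, ovary, adipose tissue and day 240 muscle. Liver, at 6 reads, was thus 1356-fold lower (counting interval 623 to 3697). SLC12A1, the sodium, potassium and chloride cotransporter of the thick ascending limb, was at 73.4 RPKM in kidney. In the other organs it was at 0.0550 in liver, 0.0495 in testis, 0.0291 in spleen, 0.0287 in lung, 0.00978 in ovary, and 0 in heart, adipose tissue and day 240 muscle. Both genes were thus more than 100 times lower in every other organ than in kidney.

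Proteins that work with this cotransporter were lower in kidney. KCNJ1, the channel that returns potassium to the lumen, was at 16.7 RPKM. CLDN16, a tight junction protein for magnesium and calcium, was at 4.003 RPKM, and BSND, the subunit of the basolateral chloride channels, at 3.22 RPKM with no read in the other 8 organs. EGF was at 119 RPKM in kidney but was not restricted, since day 240 muscle was only 2.10-fold lower.

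Further along, 2 of 6 matched genes of the distal and connecting tubule were members. CALB1, calbindin, which binds calcium on its way through the cell, was at 121 RPKM in kidney (119 to 124). Its other organ values were 0.166 in ovary, 0.0292 in lung, 0.0117 in liver, and 0 in heart, spleen, testis, adipose tissue and day 240 muscle. KLK1, the kallikrein that releases kinins, was at 61.6 RPKM, with 0.0653 in spleen and 0.0322 in lung. Both were among the 12 members with the highest kidney levels.

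For the collecting duct, 2 of 9 genes on the list for principal cells and 3 of 14 on the list for intercalated cells were members. AQP2, the water channel under control of vasopressin, was at 17.5 RPKM in kidney (16.8 to 18.2), and lung followed at 0.0315, which was 554-fold lower (237 to 1709). AQP6, a related channel of intracellular vesicles that was placed on the same list, was at 1.78 RPKM. The intercalated cell genes were low: SLC4A9, a bicarbonate carrier, was at 3.21 RPKM, SLC26A4, the chloride and bicarbonate exchanger pendrin, at 2.75, and FOXI1, the transcription factor of these cells, at 1.49. Testis was next for the first 2, at 0.482 and 0.579 RPKM. The proton pump subunit ATP6V1B1 was higher, at 38.4 RPKM, but spleen was only 15.4-fold lower and its tau was 0.874. The sodium channel subunit SCNN1A was at 27.9 RPKM with lung 2.59-fold lower.

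Transcription factors gave 5 members of 28 matched genes, and 16 of the 28 were highest in kidney. PAX2, a regulator of nephron formation, was at 6.64 RPKM (5.92 to 7.44) and had no read in the other 8 organs, so that it was at least 60.2-fold higher in kidney with 3 reads per library as the floor. TFAP2B, a factor of the distal nephron, was at 5.48 RPKM, POU3F3, which is required for the loop of Henle, at 2.83, SIM1 at 2.27 and LHX1, another factor of nephron formation, at 1.54. Of the list of other kidney genes, 2 of 12 were members, the membrane proteins TMEM174 at 9.96 RPKM and TMEM72 at 9.60. HNF4A, which liver and kidney share, was at 19.3 RPKM in kidney, 1.32-fold above liver.

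Outside the lists, AOC1 was the named gene with the highest level. It encodes diamine oxidase, which breaks down histamine, and took 38261 reads in kidney, the most of any member. It was at 338.5 RPKM in kidney, 1.09 in spleen, 0.139 in lung, 0.0835 in liver, 0.0667 in testis, 0.0256 in adipose tissue, 0.0148 in ovary and 0.00986 in day 240 muscle, and at 0 in heart. It was thus seen in 7 of the other 8 organs, and its tau of 0.924 was below the lower quartile of 0.931. MCCD1 was at 131 RPKM with 1 read each in liver, spleen and lung. TINAG, a basement membrane protein, was at 55.4 RPKM, with spleen next at 0.0660.

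The member with the highest level had no symbol. ENSSSCG00000015084 was at 410 RPKM in kidney (395 to 425) from 2951 reads, since its recovered length was only 198 nt, and at 18.3 RPKM in lung. It had no read in the other 7 organs. The unnamed genes ENSSSCG00000013480 at 161 RPKM, ENSSSCG00000000961 at 96.4 and ENSSSCG00000028835 at 85.9 were also among the 12 highest. The members were short in general, with a median recovered length of 1266 nt against 1823 nt for Ensembl genes above 0 in at least 4 libraries and 1952 nt for the genes highest in kidney that were not members. Since 34 of these lengths are lower bounds, the lengths of members and other genes are not strictly comparable.

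Solute carriers were frequent among the members, judged by symbol, a feature the choice did not use. Symbols beginning with SLC were held by 20 of the 75 named members (26.7%), against 284 of 11654 named Ensembl genes (2.44%) and 65 of 736 named genes that were highest in kidney at RPKM of at least 1 (8.83%). Under the same choice for other organs, the share was 1 of 9 in adipose tissue (11.1%), 3 of 46 in lung, 2 of 42 in ovary, 2 of 46 in liver and 6 of 374 in testis, and there was none among 10 named genes in heart, 12 in spleen and 12 in day 240 muscle. No test was made of these shares. Besides the carriers above, the 20 included SLC51B at 21.0 RPKM and SLC51A at 3.89, which together form an exporter of bile acids and steroids, SLC23A3 at 6.90, SLC16A4 at 3.67 and the thiamine carrier SLC19A3 at 1.61. SLC23A3 had no read in the other 8 organs.

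Some members lay side by side in the genome. In the gene order of the RefSeq annotation of Sscrofa11.1, 71 of the 75 named members were found once. CLDN16 and TMEM207, SLC6A18 and SLC6A19, and SLC22A8 and SLC22A6 were direct neighbours, and AQP2 and AQP6 had 1 coding gene between them. Within pairs, kidney levels were 17.5 against 1.78 RPKM for AQP2 and AQP6, 21.9 against 2.97 for SLC6A18 and SLC6A19, 4.003 against 2.04 for CLDN16 and TMEM207, and 38.5 against 20.5 for SLC22A8 and SLC22A6. Similar sequences within the carrier and aquaporin pairs could share reads, depending on how reads with several matches were counted, which is not given in the sources used here.

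The limits of the choice passed through genes of similar kind. Just inside tau of 0.9 were AADAT with 0.901, SLC7A9 with 0.903 and VIL1 with 0.904, and just outside were SLC13A5 with 0.899 and a pair of unnamed genes with 0.899 and 0.898. AADAT, an enzyme of lysine and tryptophan breakdown, and VIL1, villin of the microvilli, were at 2.73 and 2.10 RPKM in liver. SLC13A5, the citrate carrier, was at 0.571 RPKM in liver. At the level of 1 RPKM, CYP27B1 and TRPA1 with 1.03 each were inside, and SYNE4 and GLIS1 with 0.993 each and an unnamed gene with 0.945 were outside.

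Members differed in which organ came next. Testis and ovary came next for 23 members each, liver for 21, lung for 17, adipose tissue for 11, spleen for 10, heart for 2 and day 240 muscle for 1. A further 16 members had no read in any of the other 8 organs. Of these, 8 had a symbol: PAX2, SLC23A3, BSND, SLC28A1, CLRN3, POU3F3, TMEM207 and PPY, of which CLRN3 and PPY were chosen after their values were seen. Their kidney levels were low enough that 3 reads per library left bounds such as 22.5-fold for BSND. The gap from kidney to the next organ had a median of 4.62 on the log2(RPKM + 0.1) scale, with a range of 1.22 to 9.54. On that scale the gap of low members is understated.

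**Figure D3:**
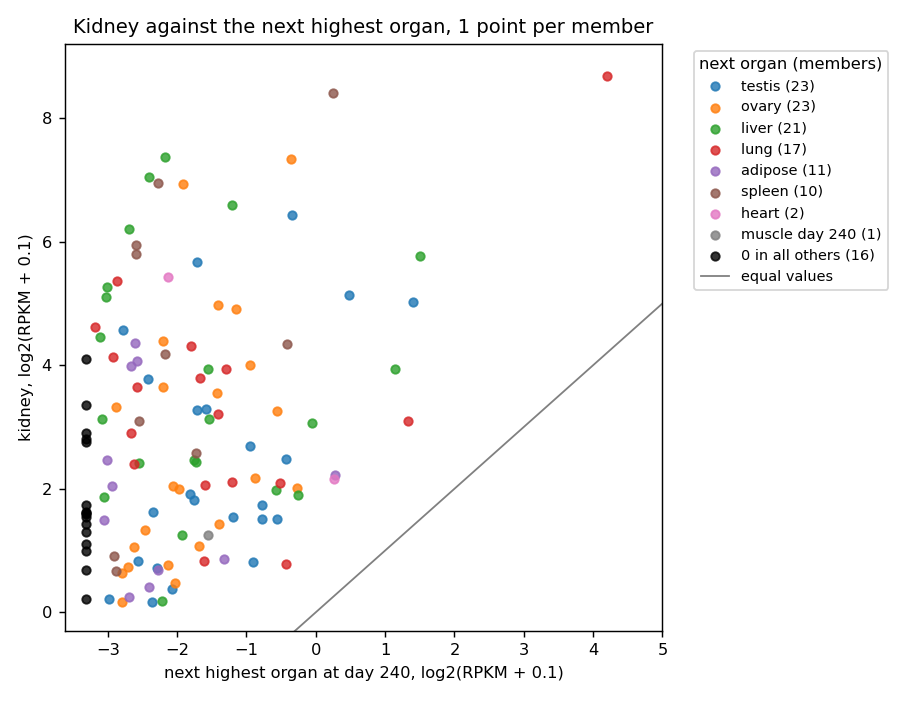
Kidney level against the level in the next highest organ at day 240, both as log2(RPKM + 0.1), with 1 point per member coloured by the next organ and a line of equal values. The points at the left edge are the 16 members with no read elsewhere, and the point at the upper right is ENSSSCG00000015084 with lung next.

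Low levels outside kidney were the rule, by the choice. In the other 8 organs, 55 members stayed under 0.1 RPKM and 115 under 1 RPKM. The 9 members that reached 1 RPKM in another organ included CYP2A19, a cytochrome P450 that was at 4.56 RPKM in kidney and 1.11 in adipose tissue. STK32A, a kinase at 4.38 RPKM in kidney and 1.10 in heart, and KLHDC7A, at 8.44 and 2.41 in lung, were named after their values were seen. Summed over all members, the level was 0.901% of kidney in lung, 0.391% in testis, 0.347% in liver and 0.00865% in day 240 muscle. Of 53 members seen in lung, 13 were seen by 1 read. The 12 hepatocyte genes summed to 460 RPKM in lung, the highest sum outside liver among the single tissues, and their part in the lung values of the members was not tested.

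The mixtures and the young muscle were not used in the choice, although low levels in day 240 muscle, which it did use, favour low levels in other muscle libraries. In the tissue mixture all 124 members were above 0, against 88.8% of all Ensembl genes, and 82 members (66.1%) were at RPKM of at least 1, against 62.0% of all Ensembl genes. The second share was close to that of all genes, and after scaling of RPKM to a common median ratio 44 members were at this level. All members had reached 1 RPKM in kidney by the choice, while 15252 of the 21607 Ensembl genes reached it in an organ at day 240. Both shares of all genes are thus not on equal terms with those of the members. The mixture was deeper in total reads than any single-tissue library. The 5 members with the highest levels there were ENSSSCG00000015084 at 45.3 RPKM, UMOD at 31.9, ENSSSCG00000000961 at 18.8, ENSSSCG00000028835 at 17.2 and AOC1 at 16.1. All of them were among the 12 highest in kidney.

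Relative to kidney, members in the tissue mixture had a median of 20.6% of the kidney level, with quartiles of 10.9% and 35.7%. By the choice of members for a high kidney value, a lower value in another library is favoured. Of 116 members lower in the mixture, the counting intervals of both libraries were apart for 111. The same share over all Ensembl genes was not worked out, so this count is a description and not a result about the members. The spread among members was wide. The 5 loop of Henle members ranged from 15.3% to 22.1%, with UMOD at 19.4% of its kidney level, SLC12A1 at 15.3%, KCNJ1 at 22.1%, CLDN16 at 21.6% and BSND at 19.6%. The 2 distal members were lower, CALB1 at 1.64% and KLK1 at 5.92%. The 12 members on the carrier list ranged from 3.72% for SLC5A12 to 108%, with a median of 11.8%. The brush border members DPEP1 and AMN were at 24.98% and 30.3%, and the 3 members on the intercalated cell list had a median of 25.7%. Outside the lists, MCCD1 was at 1.43%, TINAG at 3.59% and AOC1 at 4.75%. No test of a difference between lists was made.

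**Figure D4:**
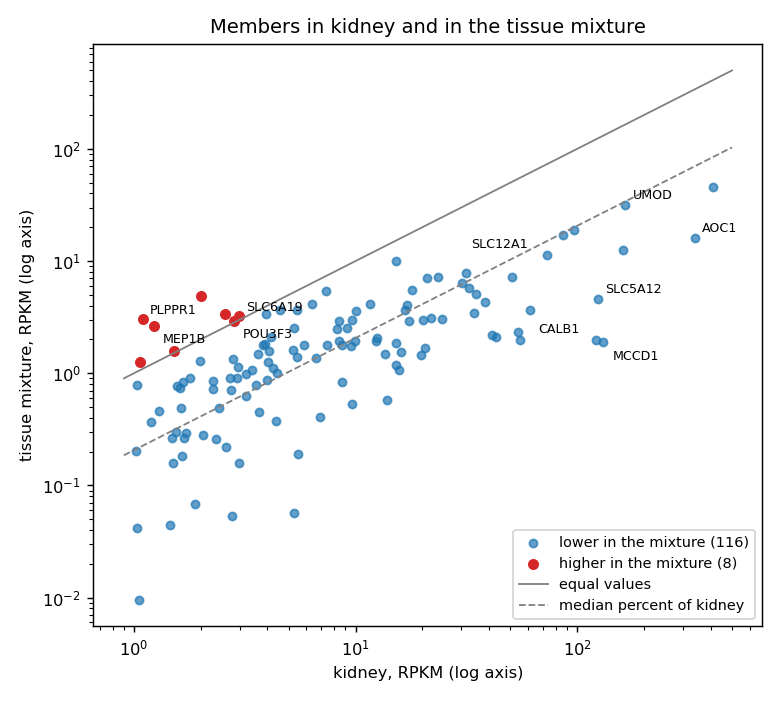
RPKM of each member in kidney (horizontal, log axis) and in the tissue mixture (vertical, log axis), with lines of equal values and of the median of 20.6% of kidney. The 116 members below the line of equal values are blue, and the 8 above it are red and lie at kidney levels under 3 RPKM.

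By RPKM as deposited, higher levels in the mixture than in kidney were found for 8 members. PLPPR1, a membrane protein of the lipid phosphatase family, was at 3.03 RPKM in the mixture (2.71 to 3.38) against 1.09 in kidney (0.777 to 1.49), or 277%. MEP1B was at 2.62 RPKM in the mixture (2.41 to 2.84) against 1.23 in kidney, or 213%. For these and an unnamed gene at 243%, the intervals did not overlap. For the other 5 they did, among them SLC6A19 at 108% and POU3F3 at 103%. PLPPR1 was chosen after its values were seen. The kidney levels of the 8 came from 9 to 380 reads. The log2 factors by which the common median ratio divides RPKM were 1.27 for the tissue mixture and 0.17 for kidney. Such scaling would lower these percents, and whether any intervals stay apart after it was not worked out. The share of all Ensembl genes higher in the mixture with intervals apart was not worked out either.

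Genes restricted to other organs by the same choice kept other shares in the mixture. The median was 78.9% of their own organ for 21 heart genes, 38.4% for 87 liver genes, 32.5% for 26 day 240 muscle genes and 23.3% for 37 spleen genes. Kidney with 20.6% lay between spleen and lung, where 73 genes had a median of 9.60%. Lower medians were 6.84% for 82 ovary genes, 3.49% for 17 adipose genes and 0.194% for 767 testis genes. The 79 lncRNAs restricted to kidney by the same choice had a median of 5.71%. In the mixture 3 of them reached 1 RPKM, against 82 of the 124 Ensembl genes. Median kidney levels differed, at 2.23 RPKM for these lncRNAs and 5.44 for the Ensembl genes, so these counts are not on equal terms. The share of all lncRNAs at this limit is not given here. No test was made, and the interquartile ranges of kidney (10.9% to 35.7%) and liver (22.9% to 64.4%) overlapped. These percents use RPKM as deposited. The log2 factors by which the common median ratio divides RPKM were 1.27 for the tissue mixture and 0.17 for kidney. They were -1.18 for liver, -1.01 for day 240 muscle, -0.23 for spleen and 0.39 for lung. Such scaling would lower the percents of liver, muscle and spleen more than those of kidney. The order of organs after it was not worked out.

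**Figure D5:**
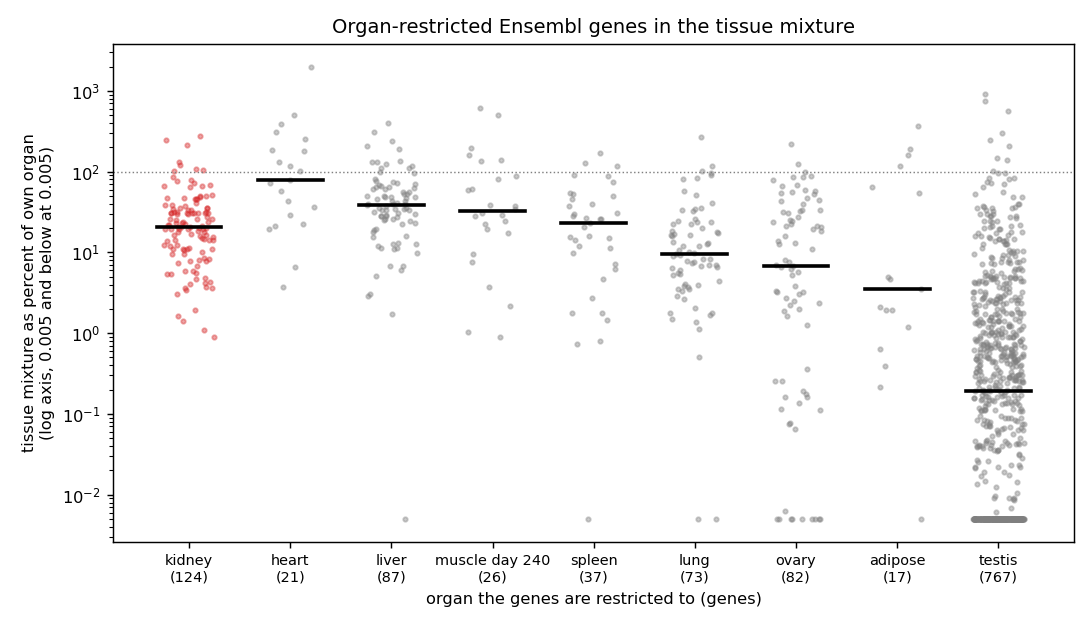
Level in the tissue mixture as a percent of the level in the organ to which each gene is restricted (log axis, values of 0.005 and below drawn at 0.005), with 1 point per gene and black bars for medians. The kidney genes (red) have a median of 20.6%, the liver genes of 38.4% and the testis genes of 0.194%, all from RPKM as deposited.

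Against the muscle mixture, 111 of the 118 members with RPKM of at least 0.1 in either mixture were at least 2-fold higher in the tissue mixture on the log2(RPKM + 0.1) scale. For all Ensembl genes compared in this way the share was 44.4%, from 7752 of 17457. The other 6 members were under 0.1 RPKM in both mixtures. Most members passed this filter through the tissue mixture alone, so the count over those that passed is a description. With no filter, 111 of all 124 members were past 2-fold. The median difference was 3.99 for members and 0.82 for all genes compared. After scaling of RPKM to a common median ratio, the share of all genes that were higher was 30.2%, that of lower genes rose to 13.6%, the median of all genes was 0.30, and 106 of 113 members were higher.

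In the other direction, 2 members were at least 2-fold lower in the tissue mixture, against 6.14% of all genes compared. They were ENSSSCG00000028412, at 0.492 RPKM against 2.07 in the muscle mixture, and ENSSSCG00000004259, at 0.160 against 0.741. Both were named after their values were seen, and the first rests on 9 and 22 reads. SIM1 was at 0.727 RPKM in mixed tissues and 1.202 in mixed muscle, which is below 2-fold.

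In muscle the members were low, at day 240 by the choice. Of 124 members, 9 were above 0 at day 0, 28 at day 30, 2 at day 240 and 50 in the muscle mixture, against 61.3%, 64.0%, 60.7% and 79.6% of all Ensembl genes. At RPKM of at least 0.1 the numbers of members were 2, 4, 1 and 15, whereas 54.6% of all Ensembl genes reached this level at day 0, 52.6% at day 30 and 67.7% in the muscle mixture. At day 0, day 30 or in mixed muscle, 3 members reached 1 RPKM, against 32.5%, 24.9% and 46.8% of all Ensembl genes in the respective libraries. Day 30 and day 240 differ in depth, at 24445391 and 32641450 total reads, and the day 30 library, the less deep, held more members above 0. The 12 hepatocyte genes summed to 3.14 RPKM at day 30, 0.651 at day 0 and 0.0562 at day 240, and their part in this result was not tested.

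The exception in muscle was SIM1, a transcription factor known from the nephron and from neurons of the hypothalamus. It was at 0.692 RPKM at day 0 (0.551 to 0.859), 1.01 at day 30 (0.805 to 1.26), 0.240 at day 240 and 1.202 in the muscle mixture (1.06 to 1.36). Behind these stood 82, 82, 26 and 251 reads. It was thus the only member at RPKM of at least 0.1 in every muscle library. In kidney it was at 2.27 RPKM, 9.46-fold above day 240 muscle (counting interval 6.32 to 14.7), and in the other organs it was at 0.0879 in adipose tissue, 0.0139 in ovary and 0 in heart, liver, spleen, lung and testis. The intervals of day 0 and day 30 overlapped on RPKM as deposited. The log2 factors by which the common median ratio divides RPKM were -0.26 at day 0, -1.14 at day 30 and 0.17 in kidney. Such scaling would raise day 30 more than day 0 and lower kidney, and the intervals were not compared after it.

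The remaining members in young muscle were lower. CYP2A19 was at 0.138 RPKM at day 0 from 6 reads, an unnamed member at 0.0966 from 3, and CACNA1I, a calcium channel subunit, at 0.0614. At day 30, ENSSSCG00000028412 was at 0.484 from 2 reads and SLC7A13 at 0.325 (0.162 to 0.581) from 11. AADAT was at 0.193 RPKM at day 30. None of these members had a read in muscle at day 240. In the muscle mixture, ENSSSCG00000015084 was at 1.36 RPKM from 17 reads, while it had no read in the 3 single muscle libraries.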

How the data were processed

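Total RNA was depleted of ribosomal RNA and sequenced as paired ends. The authors mapped reads with TopHat 1.3.2, assembled transcripts with Cufflinks, counted reads with htseq-count and deposited RPKM, 1 value per feature and library. The genome build of these libraries and the treatment of reads with several matches are not given in the sources used here, so no coordinates are reported.

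RPKM was used as deposited, with a pseudocount of 0.1 on the log2 scale, in Python 3.11.15 with pandas 2.3.3, numpy 2.4.6 and scipy 1.17.1. Reads and lengths were recovered as the smallest whole numbers that fit all libraries. On simulated data, 13 of 13 library depths and 17335 of 17369 Ensembl genes above 0 in at least 4 libraries were recovered. Symbols came from the tables supplied for the pig and matched 11654 of 21607 genes.

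The members and gene lists were chosen with earlier results of these data known. Of 265 symbols on the lists, 175 matched. Genes named were members on the lists, the 12 highest in kidney, those nearest to the limits, the 5 highest in the tissue mixture, up to 3 in young or mixed muscle, the 5 nearest to tau of 1, and up to 3 other genes a list. Unnamed genes were limited to 4 under this rule, and further identifiers are said to be chosen after their values were seen. The same is said of other named genes, except those given with the solute carrier symbols or the neighbouring pairs. Some items under this rule are not reported here. No test was run. Alternatives were other pseudocounts, limits and scalings. Promoter motifs were not searched.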

Additional observations from a re-analysis of the deposited data

How the results depend on the processing

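The number of members moved from 124 to 79 with a pseudocount of 0.01 and 215 with 1, to 72 with tau of at least 0.95, and to 256 and 66 with a kidney limit of 0.1 and 5 RPKM. It was 186 with tau of at least 0.85, 172 without liver, 138 and 125 with RPKM scaled to the same total and the same median ratio, and 123 with at least 10 reads. Scaling to the same median ratio kept 113 of the 124 and that to the same total 122. The median gap to the next organ, 4.62 on the log2 scale, was 5.38 with a pseudocount of 0.01, 2.38 with 1 and 4.40 with the median ratio. The number of members at RPKM of at least 1 in the tissue mixture, 82, was 44 with the median ratio and 71 with the same total. Members at RPKM of at least 0.1 in muscle numbered 2 at day 0, which was 9 above 0 and 0 at 1 RPKM, and 4 at day 30, which was 28 above 0, 1 at 1 RPKM and 15 with the median ratio. The count of members at least 2-fold higher in the tissue mixture than in the muscle mixture, 111, ran from 81 to 113 over 7 alternatives. The cause of these shifts was not tested. No paired analysis was possible because each tissue or stage had a single library, and for the same reason no library could be left out as a replicate. Depth limits low members most, as 3 reads were the floor and 17 members had fewer than 50 kidney reads.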

Other observations

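Some members outside the lists, chosen after their values were seen, belong to the structure of the brush border. VIL1, villin, was at 15.1 RPKM in kidney and 9.96 in the tissue mixture, or 65.8% of kidney. CDHR5 and CDHR2, the cadherins that link the tips of neighbouring microvilli, were at 7.36 and 6.35 RPKM in kidney and at 73.0% and 65.6% of these levels in the mixture, above the upper quartile of 35.7% over all members. NHERF4, a scaffold protein of the same border, was at 12.4 RPKM and 16.5%. Of 5 listed genes with CDHR symbols, 2 were members, against 75 of all 11654 named Ensembl genes. This count is a description, and no test was made.

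Tight junction and retinoid genes were also present, and the members named here were chosen after their values were seen. CLDN8, a claudin of the collecting duct, was at 11.6 RPKM in kidney, with ovary next at 0.272. As a description with no test, 2 of 16 listed claudins were members, against 75 of all 11654 named Ensembl genes. STRA6, the receptor that takes up retinol, was highest in kidney with ovary next at 0.420 RPKM. CNDP1, a dipeptidase for carnosine, was at 19.7 RPKM with lung next at 0.188.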
